A study of Mus musculus with 6 samples.

Results

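The S100 genes encode small EF-hand calcium-binding proteins that mostly work as dimers. Inside the cell they bind partners such as annexins and non-muscle myosin, and several of them, once released, act as alarmins, that is, as signals of tissue damage sensed through receptors such as RAGE and TLR4. The pair S100A8 and S100A9 (calprotectin) is known from neutrophils and monocytes of inflamed joints, whereas S100A4, S100A6, S100A10 and S100A11 are known from fibroblasts and other mesenchymal cells. The genes described here are *S100a1*, *S100a4*, *S100a6*, *S100a8*, *S100a9*, *S100a10*, *S100a11*, *S100a13* and *S100a16*, taken by their gene names. They were 9 of the 49548 genes in the table and 9 of its 17 protein-coding S100 genes.

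The libraries came from synovial fibroblasts (SFs) of the ankle joints of *hTNFtg* mice, which carry a human TNF transgene and develop chronic polyarthritis. The 3 libraries of one group had no treatment by their labels (a vehicle by the study's methods), and the 3 of the other received 500 μM amisulpride, an antipsychotic dopamine receptor antagonist, for 48 h. Both groups carried the transgene, and no wild-type library was used here, so a level in these cells has no healthy reference. By the study's methods the cells were cultured from 8-week-old mice after CD45+ cells had been depleted, and the replicates were biological. RNA was read from the 3′ ends of transcripts, and each value is a normalised count, in which the libraries were scaled to one another by the authors.

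One read was worth about 0.83 to 1.79 normalised counts, so the libraries held about 2520000 to 4710000 reads and a level of 3 reads lay at 2.50 to 5.37 normalised counts. The value for untreated 1 is uncertain, since its estimate depended on the range searched. Amisulpride 3 was the shallowest library and stood apart, at 73.9 on a first principal component (37.1% of the variance) on which the other 5 lay between -38.2 and 10.4. Fibroblast markers summed to 45221 to 60240 in untreated and 52114 to 91864 in amisulpride libraries, and all 13 passed the filter on low values. Macrophage markers were also present, with sums of 2215 to 4009 and 2159 to 4059, and *Ptprc*, which encodes CD45, was at 12 to 38 and 5 to 23.

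All 9 genes lie on chromosome 3 of the mm10 mouse genome. Of these, 7 occupy 184.7 kb from base 90511034 to base 90695721, in the order *S100a1*, *S100a13*, *S100a16*, *S100a4*, *S100a6*, *S100a8* and *S100a9*, and *S100a11* and *S100a10* occupy 44.2 kb from base 93520488 to base 93564643. *S100a1*, on the minus strand, and *S100a13*, on the plus strand, diverge from starts with 42 bases between them. The end of *S100a4* and the start of *S100a6* are 6836 bases apart, on the same strand.

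The bases upstream of the RefSeq starts are shown for *S100a4*, the only member past the thresholds of the study (below), for its neighbour *S100a6* and for *S100a11* (GRCm38.p6, plus strand, 5′ to 3′). The last stretch is the gap of the divergent pair by the gene coordinates given above. The RefSeq start of *S100a1* differs from those coordinates. Capitals mark TATAAA in *S100a4* and the AP-1 motif TGANTCA in *S100a11*. None of the motifs searched lies in the other stretches as printed.
S100a4, chr3:90603620-90603769: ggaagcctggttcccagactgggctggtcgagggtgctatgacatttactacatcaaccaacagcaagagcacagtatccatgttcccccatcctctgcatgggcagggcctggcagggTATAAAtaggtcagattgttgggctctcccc
S100a6, chr3:90612744-90612893: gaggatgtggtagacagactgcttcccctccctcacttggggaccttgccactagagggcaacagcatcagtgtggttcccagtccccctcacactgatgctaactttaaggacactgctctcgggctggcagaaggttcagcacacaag
S100a11, chr3:93520346-93520495: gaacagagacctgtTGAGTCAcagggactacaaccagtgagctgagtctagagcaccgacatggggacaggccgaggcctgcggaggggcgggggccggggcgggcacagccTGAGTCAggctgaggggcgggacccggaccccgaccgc
between S100a1 and S100a13, chr3:90514393-90514434: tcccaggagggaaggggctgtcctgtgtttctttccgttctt

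Promoter windows were at hand for 8 of the 9 genes (not *S100a10*), and 6 motifs, chosen after the letters of *S100a4* and *S100a6* had been seen, were searched on both strands in the 250 bases before each start. TATAAA began at position -31 in *S100a4* and at -30 in *S100a8*, counted from the RefSeq start, and 12.4% of 32851 windows held it. CCAAT was found in *S100a6*, at -228 on the minus strand (33.8% of windows). The AP-1 motif lay at -136 and -38 in *S100a11* and at -192 in one of the windows of *S100a16* (6.75% of windows). The E-box CACGTG was found in *S100a11* (6.02%), the antioxidant response element TGACNNNGC in *S100a16* (10.2%), and the NF-κB consensus in none of the 8 genes (7.25%). A match says only that the letters are there.

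*S100a6* and *S100a4* dominated the family in these cells. *S100a6*, which encodes calcyclin, had the highest mean normalised count of any gene in the table, and *S100a4*, also known as fibroblast-specific protein 1 and as a partner of non-muscle myosin IIA, ranked 7. Together they made up 94.5% ± 0.59 (SD, n = 3) of the summed counts of the 9 genes in untreated and 93.4% ± 1.9 (n = 3) in amisulpride libraries. The 9 genes were 1.65 to 1.97% of all normalised counts in the untreated and 1.83%, 1.67% and 1.004% in amisulpride 1 to 3. Rank 6 was *Gm42674*, which overlaps *S100a4* and had nearly the same counts (below). The ranks and the sum of all normalised counts thus hold this locus under both names.

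Between genes, levels were compared per kb of exon. On that scale *S100a4* led in untreated SFs, with a group mean of 45075 normalised counts per kb, before *S100a6* with 29494. In treated SFs the order of this pair was the other way round, with 18522 for *S100a4* and 33953 for *S100a6*. *S100a11* followed with 2340 untreated and 2898 treated, then *S100a13*, *S100a16* and *S100a10* between 659 and 802 untreated and 572 and 740 treated, and *S100a1* at 156 and 153. The order of the 3 genes between 659 and 802 was not the same in the treated group. A 3′ protocol reads mainly the end of each transcript, so the division by exon length favours short genes. The lead of *S100a4* and the switch of order rest on that division, by 584 bases of exon for *S100a4* and 1367 for *S100a6*. By count, *S100a6* was above *S100a4* in every library.

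**Figure D1:**
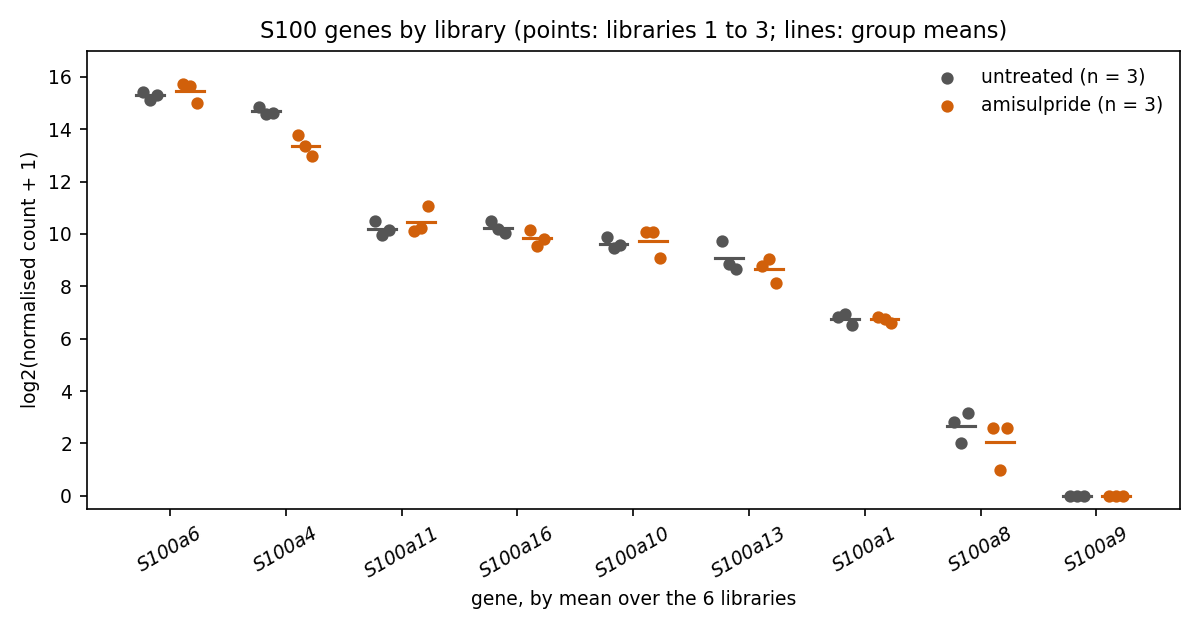
Normalised counts of the 9 S100 genes on a log2(count + 1) axis, with genes ordered by their mean; points are libraries 1 to 3 of each group from left to right and lines are group means. The *S100a4* points of the amisulpride group lie below all untreated points, whereas the groups of the other genes overlap.

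*S100a4* was lower in all amisulpride libraries than in any untreated library. It was at 29324, 24374 and 25274 normalised counts in untreated 1 to 3 and at 13948, 10468 and 8035 in amisulpride 1 to 3. The group means were 26324 ± 2637 (SD, n = 3) and 10817 ± 2972 (n = 3). The highest treated library stayed far below the lowest untreated one, and amisulpride 3, the library that stood apart, was the lowest. The log2 fold change, amisulpride over untreated on log2(count + 1), was -1.31 ± 0.32 (SE), a level 2.49-fold lower, with a 95% interval of the log2 value from -2.01 to -0.62. In these bulk cultures, fewer cells that express a gene and less RNA per cell cannot be told apart.

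The study called a gene when its log2 fold change was 1 or more in size and its unadjusted p was under 0.05. By these thresholds *S100a4* fell, and it ranked 155 by unadjusted p among the 12614 genes tested (limma). Its Benjamini-Hochberg adjusted p over all genes tested was 0.117, so it did not pass 0.05 after adjustment, as 0.285% of all genes did. The libraries were also paired by equal replicate number, a pairing inferred from these same data and not stated by the labels. With the number as a block the adjusted p was 0.0459 (limma), and 2.08% of all genes were under 0.05. The log2 ratios within the numbered pairs were -1.07, -1.22 and -1.65. Both rules are given because the choice between them decides the call. The thresholds of the study were taken up after the adjusted p had been seen.

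Of the 9 genes, 7 passed the filter on low values, and *S100a4* was the only one of them past the study thresholds, against a background of 3.01% of all genes called lower and 2.69% called higher. Likewise, 1 of 7 had groups that did not overlap, where 8.66% of all genes were lower and 7.8% higher without overlap. At an unadjusted p under 0.05 the count was also 1 of 7 (10.9% of all genes), and at an adjusted p under 0.05 it was 0 of 7 without the block. The median log2 fold change of the 7 was -0.02, and that of all genes tested was 0.0016.

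**Figure D2:**
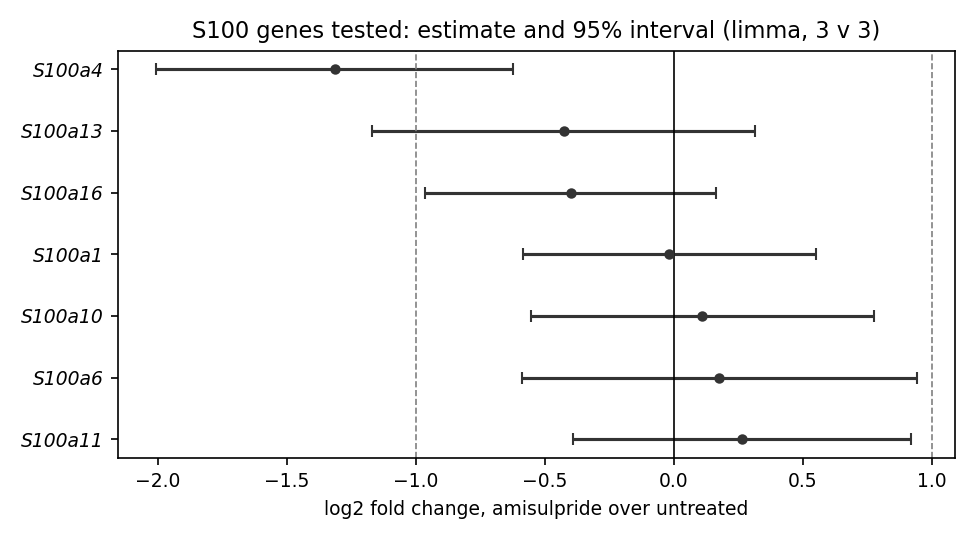
Log2 fold change of the 7 S100 genes tested, amisulpride over untreated, with 95% intervals (limma, 3 libraries a group); dashed lines mark the fold threshold of the study at -1 and 1. The interval of *S100a4* runs from -2.01 to -0.62 and those of the other 6 genes span 0.

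The estimate for *S100a4* was past the study thresholds under every alternative tried, from -1.12 when amisulpride 3 was left out to -1.52 after quantile normalisation. The adjusted p, in contrast, ranged from 0.0459 with the block to 0.421 without untreated 3. Of the 13 alternatives, the block was the only one that brought it under 0.05.

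**Figure D3:**
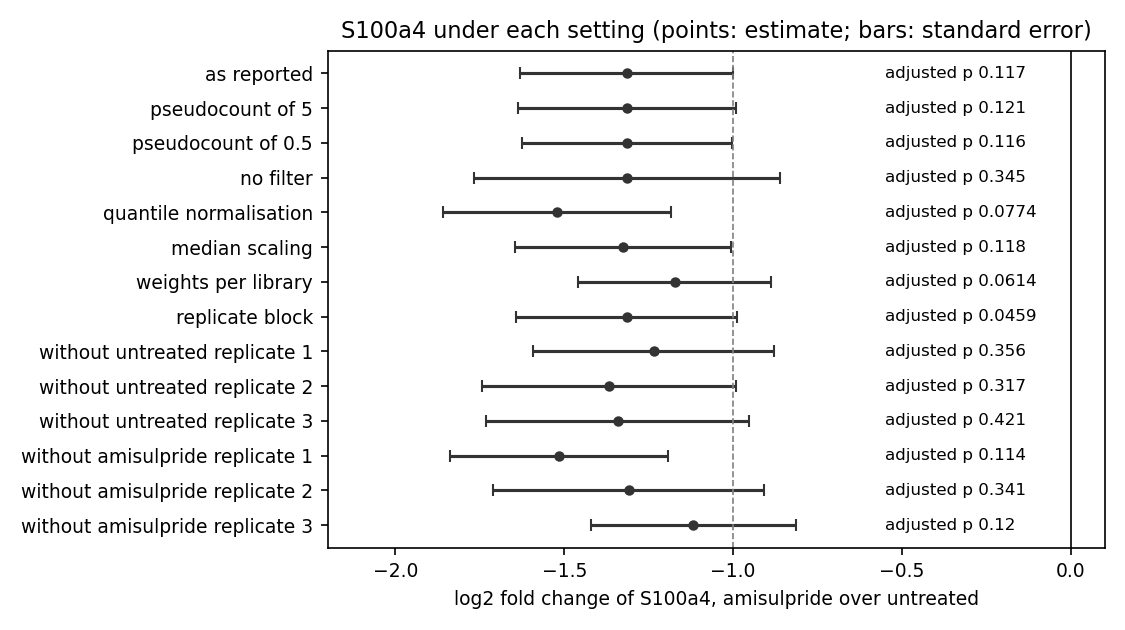
Log2 fold change of *S100a4* with its standard error, as reported and under each of 13 alternatives, with the adjusted p of each at the right; the dashed line marks -1. All estimates lie between -1.12 and -1.52, and 1 adjusted p (0.0459, replicate block) is under 0.05.

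The annotation holds a predicted protein-coding gene, *Gm42674*, at chr3:90601904-90605885, which shares 2115 bases and the strand with *S100a4*. Its values, 29574, 24647 and 25450 untreated and 14036, 10594 and 8246 treated, tracked those of *S100a4* so closely that the *S100a4* count was 97.4 to 99.4% of its count in every library. Of the 30-base words in the last 300 bases of the *S100a4* transcripts, 56.5% were also in *Gm42674*. The reads of this locus cannot be told apart between the names, and *Gm42674*, itself past the study thresholds, was not taken as another gene that fell.

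*S100a6* showed no change that could be separated from the spread. Its normalised counts were 44384, 35575 and 40997 in untreated and 54389, 51627 and 33226 in amisulpride libraries. Amisulpride 1 and 2 were above all untreated libraries, and amisulpride 3 was below them. The log2 fold change was 0.18 ± 0.35, with a 95% interval from -0.59 to 0.94 (limma, adjusted p = 0.885), and its sign turned with quantile normalisation (-0.28).

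Set against each other within a library, which cancels any scaling of whole libraries, the pair shifted. There were 1.51, 1.46 and 1.62 *S100a6* counts per *S100a4* count in untreated 1 to 3 and 3.90, 4.93 and 4.14 in amisulpride 1 to 3. The ratio was thus 2.81-fold higher with amisulpride, and the groups did not overlap, amisulpride 3 included. The two-sided exact permutation test gave p = 0.1, the smallest that 3 against 3 allows. Any ratio without overlap gives this value, so the test adds nothing to the separation. The ratio had been planned as a description without a test. *S100a4* made up 37.4% ± 1.1 (SD, n = 3) of the counts of the 9 genes in untreated and 17.7% ± 1.7 (n = 3) in treated SFs, and *S100a6* 57.2% ± 1.4 and 75.8% ± 2.5.

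**Figure D4:**
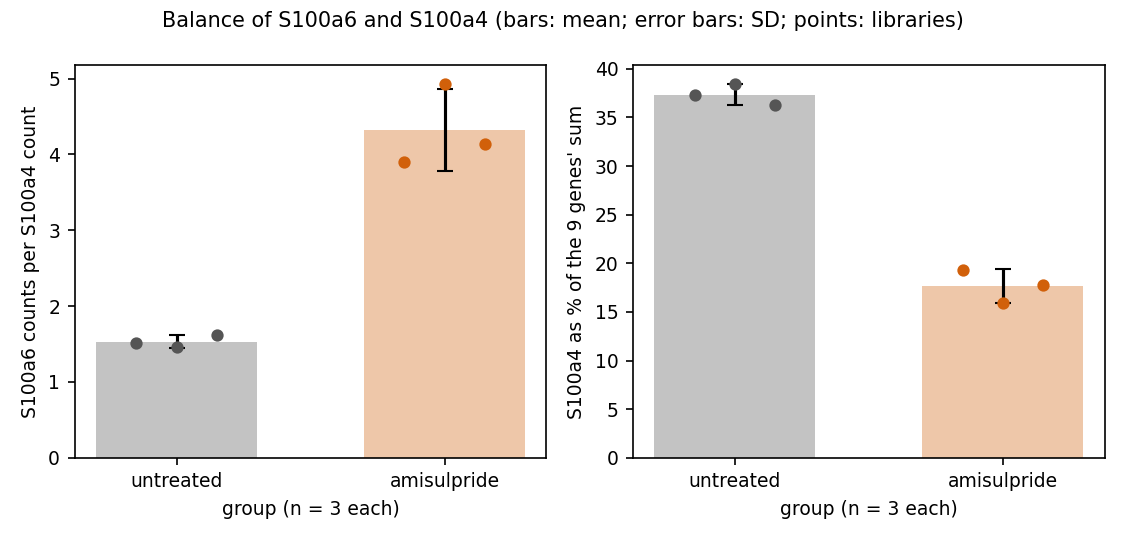
Left, *S100a6* normalised counts per *S100a4* count; right, *S100a4* as a percentage of the summed counts of the 9 genes. Bars are means, error bars SD and points libraries (n = 3 a group); the ratio lies between 1.46 and 1.62 untreated and between 3.90 and 4.93 with amisulpride.

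*S100a10*, also called p11, which does not bind calcium and forms a complex with annexin A2 at the plasma membrane, was at 940, 699 and 758 untreated and at 1067, 1083 and 542 treated. Its log2 fold change was 0.11 ± 0.30 with a 95% interval from -0.55 to 0.77. As with *S100a6*, amisulpride 3 was the lowest of the 6 libraries and the other treated libraries were the highest. The count of *S100a10* per *Anxa2* count was 0.205 ± 0.021 (SD, n = 3) untreated and 0.221 ± 0.054 (n = 3) treated.

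*S100a11*, a partner of annexin A1, was at 1448, 988 and 1151 untreated and at 1113, 1201 and 2129 treated. The treated group reached above the untreated one only through amisulpride 3, and the log2 fold change of 0.26 ± 0.30 (95% interval -0.39 to 0.92) was -0.03 without that library. Its count is uncertain, since 36.9% of the 30-base words at its transcript end are shared with 7 other genes. Its annotated pseudogene, *S100a11-ps*, had 269, 91 and 106 normalised counts untreated and 151, 91 and 82 treated.

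*S100a13*, known for a part in the release of FGF1 and IL-1α by a route outside the secretory pathway, was at 856, 464 and 401 untreated and at 439, 533 and 279 treated. Its log2 fold change of -0.43 ± 0.34 (95% interval -1.17 to 0.31) became -0.10 without untreated 1, the highest library. Its divergent neighbour *S100a1*, best known from heart muscle, stayed within 90 to 121 untreated and 97 to 114 treated, with a log2 fold change of -0.02 ± 0.26 (95% interval -0.59 to 0.55).

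*S100a16*, a widely expressed member of the family, was at 1442, 1160 and 1040 untreated and at 1134, 742 and 898 treated. It was lower in each numbered pair, but the groups overlapped, and the log2 fold change of -0.40 ± 0.26 had a 95% interval from -0.96 to 0.16. It was -0.25 without amisulpride 2 and -0.27 without untreated 1. The adjusted p-values of these 5 genes ran from 0.616 for *S100a16* to 0.985 for *S100a1* (limma).

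The calprotectin genes were at or near the limit of detection. *S100a8* was at 6, 3 and 8 normalised counts untreated and at 5, 1 and 5 treated, where 3 reads were worth 2.50 to 5.37, and it did not pass the filter. *S100a9* was at 0 in all 6 libraries. A 0 in 1 library, taken alone, does not exclude an expected level of up to about 3 reads. For a level common to the 6 libraries the limit is tighter, and it was not computed. No ratio of the pair could be formed. Of 12 neutrophil markers, 5 passed the filter, and 3, *Ly6g*, *Mpo* and *Ngp*, were at 0 in every library. Of the 5, *Elane* was at 875 to 1610, *Cxcr2* at 37 to 86, *Itgam* at 15 to 68 and *Ptprc* at 5 to 38. The last of the 5, *Camp*, was past the study thresholds, beside 3.01% of all genes called lower. It was at 31 to 51 untreated and 5 to 27 treated, with a log2 fold change of -1.51 (limma, adjusted p = 0.315, or 0.0762 with the replicate block). No gene of that list had an unadjusted p under 0.05 without untreated 1 or untreated 2 (limma).

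The other S100 genes of the table were low. *S100b*, which overlaps *Dip2a* on the opposite strand, had 12, 31 and 8 normalised counts untreated and 11, 15 and 9 treated, and was the only one of the 8 that passed the filter (log2 fold change -0.32 ± 0.56). *S100z* was at 0 throughout, and *S100a2*, *S100a3*, *S100a5*, *S100a7a*, *S100a14* and *S100g* were at 0 to 5. *S100pbp*, which encodes a protein that binds S100P and is no S100 itself, was at 211 to 245 and 170 to 320. Several of these genes are known from keratinocytes. Of 8 keratinocyte markers, 6 were at 0 in every library and 1, *Krt10*, passed the filter, at 22 to 26 untreated and 13 to 19 treated (log2 fold change -0.56, limma adjusted p = 0.646).

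Among 14 genes for proteins that S100 proteins bind or help to release, 10 were tested and none passed the study thresholds, beside 3.01% of all genes lower and 2.69% higher. At an unadjusted p under 0.05, 1 was higher and 1 lower (limma), beside 10.9% of all genes in either direction. *Anxa1*, encoding annexin A1, was at 818, 1270 and 814 untreated and at 1231, 1222 and 3037 treated, with a log2 fold change of 0.81 ± 0.36 (adjusted p = 0.453). Its groups overlapped, and without amisulpride 3 the estimate was 0.37. *Anxa1* also missed an unadjusted p of 0.05 without untreated 1 or untreated 3, with log2 fold changes of 0.71 and 0.70 (limma, unadjusted p = 0.134 and 0.140). *Plat*, encoding tissue plasminogen activator, whose action the complex of S100A10 and annexin A2 promotes, was at 195, 289 and 259 untreated and at 175, 149 and 132 treated. The groups of *Plat* did not overlap, beside 8.66% of all genes that were lower without overlap. Its log2 fold change was -0.69 ± 0.26 (limma, adjusted p = 0.344). *Plat* missed an unadjusted p of 0.05 without untreated 2 or untreated 3 (log2 fold change -0.57 and -0.65).

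*Anxa2*, the partner of S100A10, was at 4406, 3861 and 3442 untreated and at 4650, 4005 and 3332 treated (log2 fold change 0.03 ± 0.26). *Ahnak*, a very large scaffold protein bound by the same complex, gave -0.04 ± 0.29. *Myh9*, the heavy chain of non-muscle myosin IIA, was at 643 to 1216 untreated and 607 to 823 treated (-0.19 ± 0.28), and *Cacybp*, encoding the calcyclin-binding protein, gave -0.36 ± 0.27. Of the cargo of S100A13, *Fgf1* was at 0 to 9 and *Il1a* at 0 to 1 in the 6 libraries, both under the filter. The median log2 fold change of the 10 was -0.0041.

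Of 12 receptor and co-receptor genes, 7 were tested, and 2 of the 7 fell by the study thresholds, beside the 3.01% of all genes called lower. *Cd14*, the co-receptor of TLR4 and also a macrophage marker, was at 121, 69 and 76 normalised counts untreated and at 47, 25 and 13 treated. Its log2 fold change was -1.74 ± 0.44 (limma, adjusted p = 0.144, or 0.0120 with the replicate block). *Mcam*, encoding CD146, a cell adhesion molecule that binds S100A8 and S100A9, was at 112, 122 and 184 untreated and at 53, 47 and 57 treated, with a log2 fold change of -1.37 ± 0.29 (adjusted p = 0.0764, or 0.0191 with the block). Neither pair of groups overlapped, beside 8.66% of all genes that were lower without overlap.

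*Tlr4* was at 113, 97 and 98 untreated and at 74, 111 and 55 treated (log2 fold change -0.41 ± 0.31, or -0.17 without amisulpride 3 and -0.67 without amisulpride 2). *Ager*, encoding RAGE, the receptor most often named for S100 alarmins, had 5, 0 and 0 normalised counts untreated and 2, 16 and 7 treated, and did not pass the filter. *Myd88*, the adaptor of TLR4, gave -0.23 ± 0.28, and *Bsg*, encoding basigin, 0.02 ± 0.26 at 1929 to 2827 normalised counts. *Cd33* was higher without overlap, beside 7.8% of all genes. It was at 6 to 17 untreated and 20 to 26 treated, with a log2 fold change of 1.03 ± 0.49 (limma, adjusted p = 0.477).

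**Figure D5:**
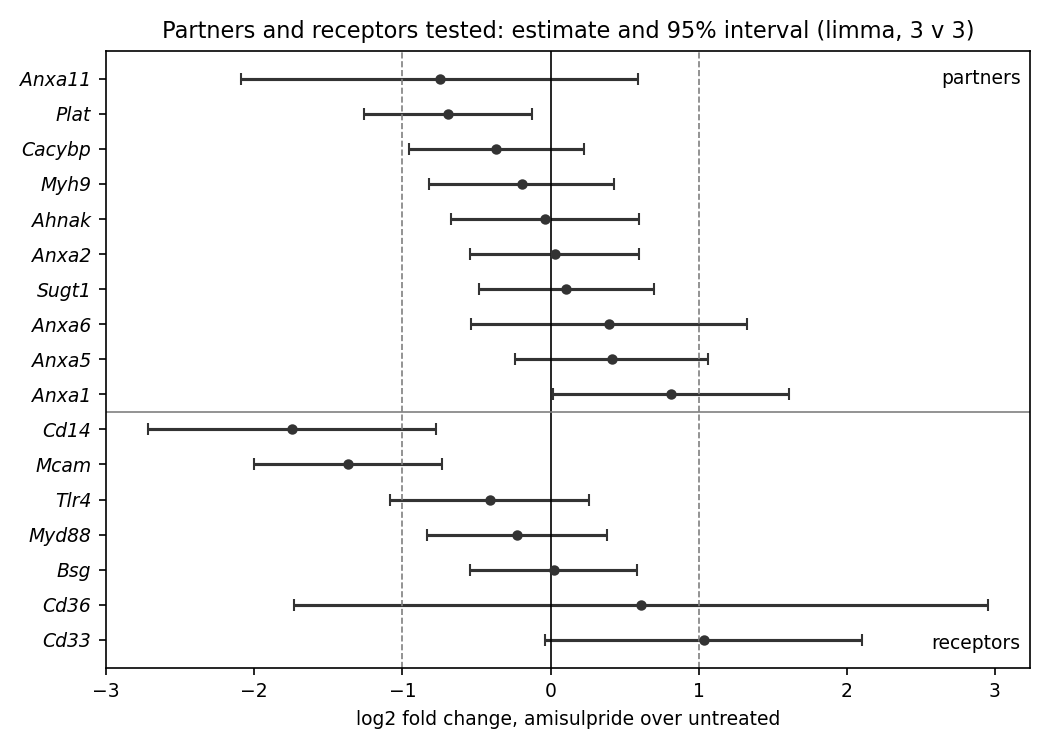
Log2 fold change, amisulpride over untreated, with 95% intervals (limma, 3 libraries a group) for the 10 partner genes (top) and 7 receptor genes (bottom) tested; dashed lines mark -1 and 1. *Cd14* (-1.74) and *Mcam* (-1.37) lie beyond the lower line, and no partner gene lies beyond either line. *Cd33* (1.03) lies beyond the upper line, with an interval that spans 0.

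In the macrophage list, 2 of 12 genes passed the study thresholds, both lower, *Cd14* and *Csf1r* (log2 fold change -1.01), beside 3.01% of all genes lower and 2.69% higher. The groups of *Csf1r* overlapped, at 114, 93 and 76 untreated and 41, 23 and 100 treated (limma, adjusted p = 0.456). Of the 12, 8 had a positive estimate, and the list's median was 0.22, against 0.0016 over all genes. *C1qb* was higher without overlap (log2 fold change 0.75, limma, adjusted p = 0.479), beside 7.8% of all genes. Without untreated 2 or untreated 3, 1 gene of this list had an unadjusted p under 0.05. In the fibroblast list, 0 of 13 passed the study thresholds and 1 had an unadjusted p under 0.05, *Prg4*, encoding lubricin of the synovial lining (log2 fold change -0.92, limma), beside 10.9% of all genes. The part of macrophages in the level of *S100a4*, which they are known to express, was not tested.

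The genes whose profile over the 6 libraries was most like that of each abundant member were found among 5571 genes with a mean of at least 100, by the root mean square (RMS) difference of centred log2 values. *S100a4* was nearest to the overlapping *Gm42674* (RMS difference 0.010) and then to *P3h4*, encoding a protein of the prolyl 3-hydroxylase complex of collagen (0.091). *P3h4* was at 1069, 745 and 828 normalised counts untreated and at 492, 364 and 292 treated. *S100a6* was nearest to *Rnf26* (0.051) and *RP24-335A22.6* (0.067), and *S100a11* to *Gm11942* (0.091) and *Psmg3* (0.096). These are descriptions over 6 libraries, in which all genes of a library share its depth and scaling.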

How the data were processed

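The deposited values used here were normalised counts of 6 libraries, treated as a score because the authors had scaled and rounded them. By the study's methods and the submitters' processing notes, reads were mapped to mm10 with TopHat2 and Bowtie2, counted per gene with GenomicRanges and normalised with DESeq. A further 12 columns of per-library values, and the authors' fold changes and p-values, were not used.

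Genes at 10 or more in at least 3 libraries (12614) were tested on log2(value + 1) with limma 3.58.1 (R 4.3.3, empirical Bayes with a mean trend, Benjamini-Hochberg adjustment), checked on simulated data. Same-numbered libraries deviated together (correlations 0.229, 0.240 and 0.201) and were taken as paired in a fit with the replicate number as a block. This pairing was inferred from these same data and is not stated by the labels. Reads per normalised count were estimated from gaps in the low values, and a search bound raised after a first run moved the estimate for untreated 1.

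The members and lists were chosen with earlier results of these data known, and the study thresholds were taken as the call rule after the adjusted p of *S100a4* had been seen. Named by rule were the members, S100 genes above 0, partners and receptors with p under 0.05 (and *Anxa2*, *Ahnak*, *Ager* and *Tlr4*), and the likest profiles. The other named genes, the shares of the members' sum and the printed promoters were chosen after their values were seen.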

Additional observations from a re-analysis of the deposited data

How the results depend on the processing

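The study thresholds kept *S100a4* as the only called gene of the 7 tested under all 13 alternatives, and its adjusted p passed 0.05 with the replicate block alone (0.0459). Genes with an adjusted p under 0.05 numbered 36 as reported, 57 with a pseudocount of 5 or with no filter, 66 after quantile normalisation, 195 with weights per library, 263 with the replicate block and 0 to 120 when 1 library was left out. It was 0 without untreated 2 or untreated 3, where limma still gave at least 911 genes at an unadjusted p under 0.05. Genes past the study thresholds numbered 719 in the main setting, 1313 with no filter and 563 to 1000 with 1 library left out, and genes with an unadjusted p under 0.05 numbered 911 to 1630. The log2 change of the *S100a6* to *S100a4* ratio was 1.25 after quantile normalisation, against 1.49.

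Signs turned for values near 0. *S100a1* gave 0.044 with weights per library and -0.14 to 0.068 with 1 library left out, *S100a6* -0.28 after quantile normalisation, *S100a10* -0.060 to 0.44 and *S100a11* -0.031 to 0.44 with 1 library left out. With 1 library left out, *S100b* ranged from -0.71 to 0.20, *S100pbp* from -0.21 to 0.24 (-0.14 with weights), *Anxa2* from -0.088 to 0.15 (-0.10 after quantile normalisation) and *Ahnak* from -0.26 to 0.17. Genes at an unadjusted p under 0.05 then ranged from 0 to 2 among partners, 0 to 2 among neutrophil, 1 to 3 among macrophage and 1 to 5 among fibroblast markers. Over all genes, 911 to 1630 were under it with 1 library left out. With the replicate block the counts were 2 of 5 neutrophil, 5 of 12 macrophage and 5 of 13 fibroblast markers tested (limma). Over all genes, 1838 of 12614 were then under it. The cause of these moves was not tested. The depth limits *S100a8*, *S100a9*, *Ager* and the other S100 genes near 3 reads.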
